A study of Mus musculus with 12 samples.

Results

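Left ventricles loaded with pressure for 4 weeks were compared with left ventricles of sham-operated mice, in the absence of drug. The 6 samples were 3 TAC+control and 3 Sham+control libraries out of 12 in the series, chosen by their labels alone. All were polyadenylated RNA of the left ventricle of C57BL/6 mice operated on at 8 weeks of age and sampled at 12 weeks, 1 mouse a library. TAC+control mice had transverse aortic constriction (TAC), in which a clip calibrated on a needle narrows the aortic arch, and received no pimobendan; a vehicle is not given in the sources used here. Sham+control mice had the same approach without the clip, also without pimobendan. The other 6 libraries, TAC+pimobendan and Sham+pimobendan, came from mice given pimobendan, an inotropic phosphodiesterase inhibitor and calcium sensitizer, at 1 mg/kg per day for 4 weeks. Values are FPKM, a measure of transcript abundance corrected for transcript length and library size, in which 11415 of 17052 genes reached at least 1 FPKM in 3 or more of the 12 libraries and were tested.

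A narrowed aorta raises the pressure against which the left ventricle ejects, and its muscle cells thicken by adding sarcomeres. In mouse hearts this growth is known to be accompanied by genes of the fetal ventricle, among them the natriuretic peptides, slow myosin and skeletal alpha-actin, and later by collagen deposition and by a shift away from fatty acid oxidation. Stress-activated kinases, immediate early transcription factors, chaperones and interferon-stimulated genes are further programmes that a loaded or injured heart can engage. The series asks about pimobendan and MAP kinases in this hypertrophy, and the comparison without drug gives the response to load alone.

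No gene passed the test between TAC+control and Sham+control. With limma and Benjamini-Hochberg adjustment over all genes, 0 of 11415 genes (0.0%) had an adjusted p under 0.05, and the smallest was 0.205. At an unadjusted p under 0.05 there were 951 genes (8.33%), of which 171 (1.5%) were higher and 780 (6.83%) lower in TAC+control. That split depended on scaling: it was 458 higher and 444 lower after median-ratio scaling, 380 and 319 after quantile normalization, and 99 and 1024 in the deposited TPM. The median log2 fold change of all genes was -0.057 in FPKM and -0.0028 after median-ratio scaling, and list medians are read against it, as are counts of members lower against the 65.1% of all genes with a negative log2 fold change. With 1 library left out at a time, the number higher ran between 108 (Sham+control replicate 2 left out) and 261 (Sham+control replicate 3). The number lower ran between 512 (Sham+control replicate 1) and 926 (TAC+control replicate 3), and was 518 with TAC+control replicate 1 left out. Every TAC+control mouse lay above every Sham+control mouse in 342 genes (3.0%) and below in 1112 (9.74%).

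The confidence intervals give the precision of each estimate. They are not adjusted for the number of genes, so they do not give the size of change that the adjusted test would have missed. They are on the scale of log2(FPKM + 1), which shrinks the differences of low genes. The median half-width of the 95% interval was 0.272 on the log2 scale, and for 11104 genes (97.3%) the interval lay within a log2 fold change of -1 to 1. Differences between libraries of the same group and of different groups covered overlapping ranges. The median absolute log2 difference over genes was between 0.143 and 0.170 for the 3 pairs within TAC+control, between 0.142 and 0.183 for the 3 pairs within Sham+control, and between 0.120 and 0.202 for the 9 pairs across them.

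The table holds no counts, so depth is unknown. FPKM summed to between 623408 and 643478 in TAC+control and between 597185 and 625423 in Sham+control. Ventricular muscle markers were present throughout, the atrial genes Sln and Bmp10 stayed at or below 0.52 and 0.07 FPKM in all 12 libraries, and the atrial light chain Myl7 was at 1.19, 2.16 and 0.63 FPKM in TAC+control and 0.53, 0 and 0.19 FPKM in Sham+control. The sum of the 8 ventricular markers was 67263 to 71903 FPKM in TAC+control and 59795 to 64886 FPKM in Sham+control, without overlap. The most abundant genes weigh most in that sum. Gene by gene, 6 of the 8 were higher and 2 lower, with a median log2 fold change of 0.056. Actc1 was higher without overlap (3.0% of all genes) and Hey2 lower without overlap (9.74% of all genes). The GC trend of a library, as Spearman's rho over genes of GC content with the departure of that library from the 12-library mean, was 0.122, 0.0055 and 0.279 in TAC+control and -0.337, 0.0796 and 0.454 in Sham+control. Genes higher at an unadjusted p under 0.05 had a median transcript length of 2477 bases, those lower 3975 bases, and all tested genes 3392.5 bases. The part of GC content and length in the results was not tested. In bulk tissue, fewer cells of a type and less RNA per cell cannot be told apart.

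In every tested gene of a panel of recognised markers of the loaded ventricle the groups overlapped. Of 21 such genes, 19 were expressed well enough to test and 0 passed, while Spp1 and Lox stayed at or below 0.34 and 1.17 FPKM in every library. Acta1, skeletal alpha-actin (chr8:123890942-123894775, GRCm38 here and below), had 1608, 632 and 166 FPKM in TAC+control hearts, against 215, 157 and 318 FPKM in Sham+control hearts. The highest TAC+control mouse stood far above the Sham+control mice and the lowest within their range (log2 fold change 1.32 ± 0.60, SE; limma adjusted p = 0.593). Myh7, the slow myosin heavy chain, had 7.3, 34.98 and 22.03 FPKM in TAC+control hearts, against 28.3, 21.99 and 4.51 FPKM in Sham+control hearts. Both groups held 1 mouse with under 10 FPKM and 2 mice with over 20 FPKM. Nppa, atrial natriuretic peptide, had 272, 169 and 137 FPKM in TAC+control hearts, against 222, 271 and 310.4 FPKM in Sham+control hearts, so 2 of the TAC+control mice lay below every Sham+control mouse. Nppb, brain natriuretic peptide, had 1197, 423 and 708 FPKM in TAC+control hearts, against 587, 661 and 550.3 FPKM in Sham+control hearts, with both the highest and the lowest of the 6 in TAC+control.

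**Figure D1:**
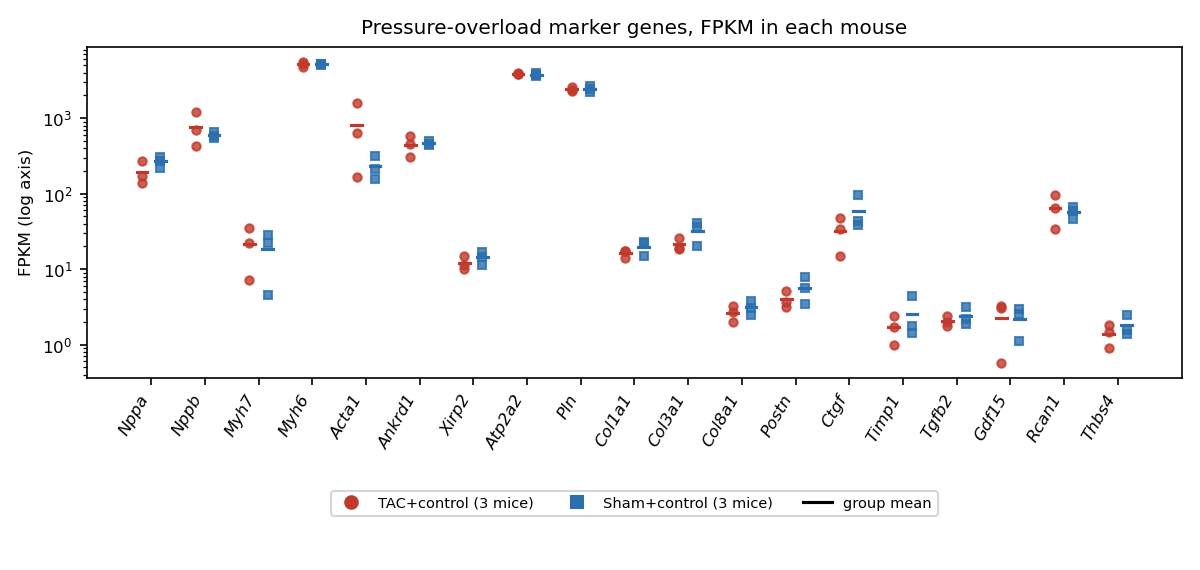
FPKM of the 19 tested markers of pressure overload in each of the 3 TAC+control mice (circles, left of each pair) and 3 Sham+control mice (squares), on a log axis, with bars for the group means. The groups overlap in every gene shown, and in Acta1, Nppb and Myh7 the SD within TAC+control exceeds the difference of the group means.

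Stretch and calcineurin markers showed the same spread. Ankrd1, a stretch-responsive titin-associated repressor, had 457, 574 and 302 FPKM in TAC+control hearts, against 445, 459.9 and 493 FPKM in Sham+control hearts. Xirp2, an actin-binding protein of the intercalated disc, had 11.5, 14.8 and 10.2 FPKM in TAC+control hearts, against 16.8, 11.3 and 14.7 FPKM in Sham+control hearts. Rcan1, a calcineurin feedback inhibitor that is a readout of NFAT signalling, had 96.7, 33.8 and 65.4 FPKM in TAC+control hearts, against 66.9, 58.6 and 46.1 FPKM in Sham+control hearts. The Sham+control values of Ankrd1 and Rcan1 fell inside the TAC+control range. The adult isoforms were steady: Myh6, the fast adult myosin, had 5205 ± 355 FPKM in TAC+control and 5157 ± 140.3 FPKM in Sham+control (SD, n = 3 each), and the calcium pump Atp2a2 had 3877 ± 60.8 FPKM in TAC+control and 3774 ± 228 FPKM in Sham+control. Their 95% confidence intervals, -0.12 to 0.15 and -0.11 to 0.19 on the log2 scale, were narrow, although the sign of both estimates turned under quantile normalization and in TPM.

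Among the muscle and signalling lists, 0 members passed. The list of myosins and fetal isoforms had 8 of 10 members higher, 2 of them (Actc1 and the atrial light chain Myl7) without overlap, where 3.0% of all genes were higher without overlap. Myl7 stayed at or below 2.16 FPKM in all 12 libraries and reached 1 FPKM only in libraries of TAC mice. It was therefore tested through groups in which it was high, so its lack of overlap adds no support. The list median log2 fold change was 0.117, and 0.031 without Sham+control replicate 2, 0.035 without TAC+control replicate 2 and 0.184 without TAC+control replicate 3. The sarcomere list had 12 of 20 members higher and a median log2 fold change of 0.027 that turned to -0.020 under quantile normalization and -0.017 in TPM, and the stretch and Z-disc list had 12 of 15 higher and a median of 0.075. Actc1, cardiac alpha-actin, had 17412, 14524 and 15042 FPKM in TAC+control hearts, against 11028, 11920.5 and 14194 FPKM in Sham+control hearts. Its groups did not overlap, at a log2 fold change of 0.34 ± 0.13 (limma adjusted p = 0.561), and quantile normalization removed the difference. That scaling gives every library the same value at each rank, so a gene that keeps its rank shows no difference whatever its level. Lmod2, which nucleates and elongates thin filaments, had 246, 274 and 380.3 FPKM in TAC+control hearts, against 410.4, 423 and 331 FPKM in Sham+control hearts, overlapping at 380 and 331 FPKM. In the calcineurin, CaMK and transcription factor list 17 of 22 members were lower, with Nfatc2 at -0.36 ± 0.12 and the cardiac factors Gata4 and Nkx2-5 at 0.26 ± 0.12 and 0.26 ± 0.13 (limma adjusted p = 0.542, 0.593 and 0.602). Of the receptor pathway genes, Gnaq, the G protein through which angiotensin and endothelin receptors signal growth, had 3.95, 3.61 and 4.05 FPKM in TAC+control hearts, against 5.74, 5.03 and 5.17 FPKM in Sham+control hearts. Its groups did not overlap (log2 fold change -0.37 ± 0.11, limma adjusted p = 0.461). Ednra, an endothelin receptor, had 28.7, 12.97 and 18.1 FPKM in TAC+control hearts, against 15.1, 16.1 and 13.1 FPKM in Sham+control hearts, with 1 TAC+control mouse well above the rest.

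No electrical or calcium gene passed. The repolarisation list had 9 of 15 members lower (65.1% of all genes were), 4 of them without overlap, where 9.74% of all genes were lower without overlap. Kcna5, the ultrarapid delayed rectifier channel, had 10.97, 6.13 and 9.01 FPKM in TAC+control hearts, against 14.1, 18.2 and 11.5 FPKM in Sham+control hearts. Kcnj2, the inward rectifier, had 5.93, 7.73 and 8.2 FPKM in TAC+control hearts, against 10.5, 8.67 and 8.64 FPKM in Sham+control hearts. In both genes every TAC+control mouse lay below every Sham+control mouse, at log2 fold changes of -0.70 ± 0.24 and -0.31 ± 0.13 (limma adjusted p = 0.542 and 0.561). Of 15 calcium cycling genes, S100a1, a calcium sensor that raises contractility, was the 1 member without overlap, where 3.0% of all genes were higher without overlap. It had 1503, 1648 and 1525 FPKM in TAC+control hearts, against 1177, 1431 and 1307 FPKM in Sham+control hearts (log2 fold change 0.26 ± 0.10, limma adjusted p = 0.561). The medians of the repolarisation and calcium lists, -0.082 and -0.029, stood close to the -0.057 of all genes.

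Among genes without overlap, Rtn4r, G0s2 and a set of red cell genes gave the largest positive differences. Among 434 genes with an unadjusted p under 0.05, no overlap and at least 5 FPKM in the higher group, 110 were higher in TAC+control. Rtn4r, the Nogo receptor (chr16:18127706-18152408), had 19.2, 14.8 and 10.9 FPKM in TAC+control hearts, against 4.98, 2.3 and 7.03 FPKM in Sham+control hearts. G0s2, an inhibitor of the triglyceride lipase ATGL (chr1:193272160-193273842), had 155, 148 and 151 FPKM in TAC+control hearts, against 68.3, 50.5 and 54.5 FPKM in Sham+control hearts. The 3 TAC+control mice of G0s2 lay close together and all exceeded the highest Sham+control mouse. Irx1, an Iroquois homeobox factor, had 9.69, 7.02 and 10.01 FPKM in TAC+control hearts, against 4.89, 1.37 and 3.81 FPKM in Sham+control hearts. Ppp1r3b, a subunit that targets protein phosphatase 1 to glycogen, had 19.9, 14.97 and 20.02 FPKM in TAC+control hearts, against 14.3, 6.56 and 5.85 FPKM in Sham+control hearts. Cited4, a transcriptional co-regulator, had 68.8, 44.8 and 44.3 FPKM in TAC+control hearts, against 33.9, 22.2 and 26.97 FPKM in Sham+control hearts. In these 3 genes too the lowest TAC+control mouse exceeded the highest Sham+control mouse. The log2 fold changes were 1.53 ± 0.41 for Rtn4r, 1.38 ± 0.27 for G0s2, 1.27 ± 0.38 for Irx1, 1.05 ± 0.31 for Ppp1r3b and 0.89 ± 0.30 for Cited4, with limma adjusted p of 0.438, 0.384, 0.471, 0.461 and 0.534. G0s2 passed in 1 of 16 alternatives, the fit of these groups alone (limma adjusted p = 0.00674; 0.181 to 0.792 in the others).

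The other 5 of the 10 largest positive differences were red cell genes. Hba-a1, an alpha-globin, had 1493, 2370.1 and 1551 FPKM in TAC+control hearts, against 521, 1094 and 716 FPKM in Sham+control hearts. Alas2, the erythroid enzyme that starts heme synthesis, had 11.1, 13.9 and 10.8 FPKM in TAC+control hearts, against 4.76, 6.81 and 4.61 FPKM in Sham+control hearts. In both genes every TAC+control mouse exceeded every Sham+control mouse, and replicate 2 was the highest of each group. All 7 tested members of the erythroid list were higher without overlap (342 of all genes, 3.0%), with a median log2 fold change of 1.03, the limma adjusted p of the members being 0.408 or above. The summed level of the 8 listed members was 4213 to 6721 FPKM in TAC+control and 1564 to 3076 FPKM in Sham+control, and Slc4a1, the red cell anion exchanger, stayed at or below 0.19 FPKM in all libraries. The coding frames of Hba-a1 and Hba-a2 differ at 1 of 429 bases, so how the deposited values divide reads between them is uncertain. Whether blood left in the ventricles takes part in these values was not tested.

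**Figure D2:**
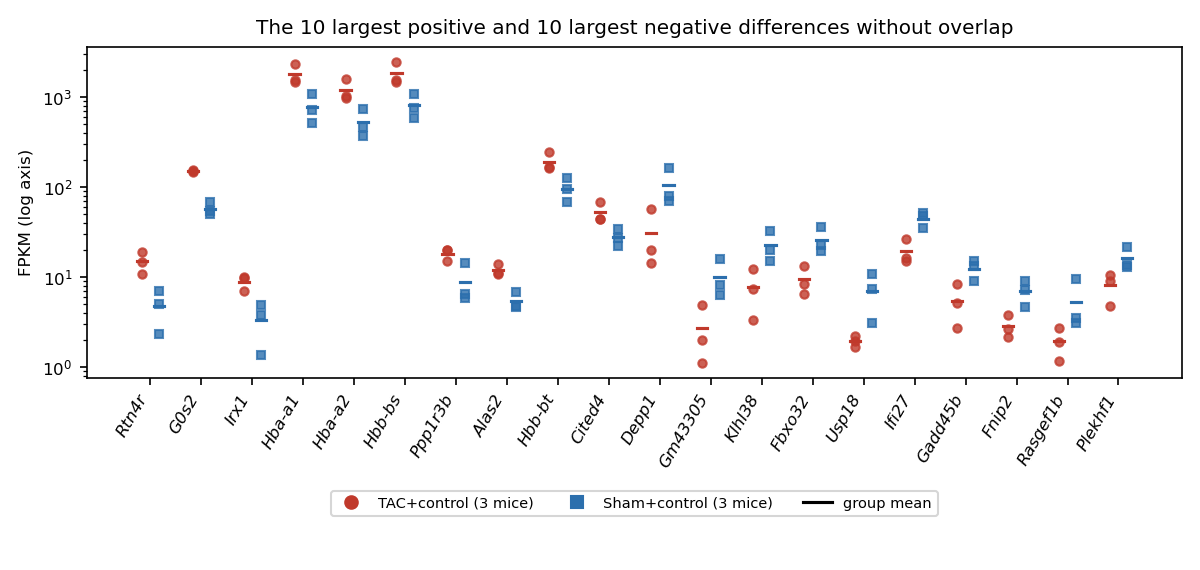
FPKM in each mouse for the 10 genes with the largest positive and the 10 with the largest negative log2 fold change among genes with an unadjusted p under 0.05 and no overlap, on a log axis, TAC+control (circles) left of Sham+control (squares), bars for group means. G0s2 shows 148 to 155 FPKM in TAC+control and 50.5 to 68.3 FPKM in Sham+control.

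Fbxo32, Klhl38 and Depp1 were among the 10 largest negative differences. Fbxo32, or atrogin-1, the ubiquitin ligase subunit of muscle atrophy (chr15:58175879-58214892), had 6.45, 8.46 and 13.4 FPKM in TAC+control hearts, against 22.7, 35.7 and 19.4 FPKM in Sham+control hearts. Its partner in muscle wasting, Trim63 or MuRF1 (chr4:134315120-134329629), had 67.6, 80.04 and 112 FPKM in TAC+control hearts, against 123, 195 and 128 FPKM in Sham+control hearts. Klhl38, a kelch family protein, had 3.32, 7.37 and 12.4 FPKM in TAC+control hearts, against 15.04, 32.2 and 20.2 FPKM in Sham+control hearts. In all 3 genes the highest TAC+control mouse was replicate 3 and lay below the lowest Sham+control mouse. The log2 fold changes were -1.37 ± 0.27, -0.78 ± 0.19 and -1.52 ± 0.38 (limma adjusted p = 0.384, 0.408 and 0.408). Depp1, an autophagy regulator induced by FoxO factors (chr6:116650684-116652847), had 57.6, 14.3 and 19.98 FPKM in TAC+control hearts, against 80.7, 165 and 70.96 FPKM in Sham+control hearts, a log2 fold change of -1.90 ± 0.43 (limma adjusted p = 0.408). Without TAC+control replicate 1, the highest of its group, Depp1 passed at -2.47 (limma adjusted p = 0.0342; 0.272 to 0.690 in the other 15 alternatives). Over the whole autophagy and muscle wasting list 13 of 20 members were lower and 0 passed, the median log2 fold change was -0.064, and the autophagy genes Map1lc3b and Sqstm1 stood at 0.03 and -0.05.

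The remaining large negative differences covered stress and signalling genes. Gadd45b, a growth arrest and stress gene, had 2.72, 5.15 and 8.29 FPKM in TAC+control hearts, against 13.2, 14.9 and 9.06 FPKM in Sham+control hearts. Fnip2, a folliculin partner in the amino acid and AMPK pathways, had 2.14, 2.64 and 3.76 FPKM in TAC+control hearts, against 7.13, 8.96 and 4.68 FPKM in Sham+control hearts. Bcl2l11, the pro-apoptotic BIM, had 2.13, 2.63 and 3.3 FPKM in TAC+control hearts, against 5.22, 5.92 and 5.14 FPKM in Sham+control hearts. None of the 3 overlapped, at log2 fold changes of -1.14 ± 0.26, -1.03 ± 0.21 and -0.81 ± 0.17 (limma adjusted p = 0.408, 0.384 and 0.384). The apoptosis list as a whole had 16 of 18 members lower (65.1% of all genes), 4 without overlap (9.74% of all genes), 0 that passed, and a median log2 fold change of -0.22. Casp8, the initiator caspase of death receptors, had 3.13, 2.76 and 2.93 FPKM in TAC+control hearts, against 4.78, 3.64 and 5.2 FPKM in Sham+control hearts, whereas Tnfrsf12a, the TWEAK receptor, stood at 0.55. Gm43305, Rasgef1b and Plekhf1, also among the 10 largest, stood at -1.63 ± 0.50, -1.01 ± 0.37 and -0.93 ± 0.26.

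The 10 smallest p values included G0s2, Fbxo32 and Fnip2, given above, and genes of smaller difference. Arid5b, a DNA-binding factor of the ARID family (chr10:68092523-68278984), had 4.00, 3.98 and 4.09 FPKM in TAC+control hearts, against 7.17, 7.3 and 6.98 FPKM in Sham+control hearts. The SD was 0.059 FPKM in TAC+control and 0.161 FPKM in Sham+control, and the log2 fold change was -0.70 ± 0.11 (95% confidence interval -0.93 to -0.47; limma adjusted p = 0.205, and 0.107 to 0.690 over 16 alternatives). Fli1, an ETS factor of endothelial and blood cells, had 6.64, 7.57 and 8.53 FPKM in TAC+control hearts, against 11.2, 10.9 and 10.7 FPKM in Sham+control hearts. Zfp36l2, which binds AU-rich elements and promotes mRNA decay, had 7.96, 10.5 and 11.4 FPKM in TAC+control hearts, against 15.7, 14.1 and 16.5 FPKM in Sham+control hearts. Slc38a1, a glutamine transporter, had 1.00, 0.96 and 1.37 FPKM in TAC+control hearts, against 1.98, 2.2 and 1.92 FPKM in Sham+control hearts. Each was lower in every TAC+control mouse, at -0.48 ± 0.10, -0.60 ± 0.12 and -0.53 ± 0.11. Nr0b2, the orphan receptor SHP that represses other nuclear receptors, had 15.4, 14.3 and 15.1 FPKM in TAC+control hearts, against 9.07, 10.4 and 11.2 FPKM in Sham+control hearts. Zfp768, a zinc finger protein, had 39.4, 32.3 and 31.8 FPKM in TAC+control hearts, against 24.2, 22.4 and 26.1 FPKM in Sham+control hearts. The last 2 were higher in every TAC+control mouse, at 0.51 ± 0.10 and 0.49 ± 0.10, and all 5 of these genes had a limma adjusted p of 0.384.

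The inducible HSP70 genes were high in 2 of the 3 TAC+control mice. The 2 HSP70 genes lie close together and are nearly identical, which bears on how far their values can be told apart. Their promoters are shown to describe the likeness, and the bases before the start are not transcribed and do not enter the values. The sequences are from RefSeq, GRCm38.p6, from 250 bases before to 50 after the start of each gene, minus strand, 5′ to 3′. The 4 positions that differ are in capitals, for Hspa1a at chr17:34972107-34972406 and for Hspa1b at chr17:34959189-34959488.
Hspa1a: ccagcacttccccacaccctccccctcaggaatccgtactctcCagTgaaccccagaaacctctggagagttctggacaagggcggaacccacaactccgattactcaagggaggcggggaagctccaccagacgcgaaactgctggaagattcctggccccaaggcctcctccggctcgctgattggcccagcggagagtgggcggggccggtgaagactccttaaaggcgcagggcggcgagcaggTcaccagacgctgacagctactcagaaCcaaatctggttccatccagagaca
Hspa1b: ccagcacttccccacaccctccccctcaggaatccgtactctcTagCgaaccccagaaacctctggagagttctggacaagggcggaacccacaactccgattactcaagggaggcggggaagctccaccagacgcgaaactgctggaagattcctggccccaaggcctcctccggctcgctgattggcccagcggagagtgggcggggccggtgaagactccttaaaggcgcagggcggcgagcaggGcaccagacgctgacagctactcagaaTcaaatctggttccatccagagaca
Their coding frames were 99.6% identical, with 8 differences over 1926 aligned bases. Hspa1b had 2.93, 49.4 and 52.3 FPKM in TAC+control hearts, against 1.74, 3.99 and 1.58 FPKM in Sham+control hearts. Hspa1a had 4.97, 32.2 and 75.7 FPKM in TAC+control hearts, against 3.13, 7.65 and 1.47 FPKM in Sham+control hearts. TAC+control replicates 2 and 3 were over 30 FPKM in both genes, while TAC+control replicate 1 lay among the Sham+control mice. Log2 fold changes were 2.74 ± 0.73 and 2.48 ± 0.71 (limma adjusted p = 0.408 and 0.461). Without TAC+control replicate 1 both passed, Hspa1b at 3.98 (limma adjusted p = 4.15e-05; 0.344 to 0.702 in the other 15 alternatives) and Hspa1a at 3.50 (limma adjusted p = 0.0427; 0.393 to 0.737 in the others). Zfp799, a zinc finger gene with the same pattern by mouse, passed in that alternative too (limma adjusted p = 0.00895; 0.492 to 0.819 in the others), with 2.02, 7.16 and 7.39 FPKM in TAC+control hearts, against 2.76, 2.55 and 2.43 FPKM in Sham+control hearts. Other chaperones differed by less: the constitutive Hspa8 stood at 0.14, the cochaperone Dnajb1 at 0.50 and Hsp90aa1 at 0.06. The list median was 0.078 with 17 of 20 members higher and 0 without overlap, where 3.0% of all genes were higher without overlap.

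Interferon-stimulated genes were lower as a group. Interferons act through transcription factors that bind an interferon-stimulated response element in the promoters of antiviral genes. All 28 tested members had a negative log2 fold change (26 after median-ratio scaling or quantile normalization), with a median of -0.34 against -0.057 for all genes, and 18 of them did not overlap, where 9.74% of all genes were lower without overlap. None passed the test. The response element core, GAAA followed by 2 bases of any kind and GAAA again, searched on both strands, occurred in the 300-base promoters of 11 of the 19 members that have an entry (57.9%) and in 321 of 9129 tested genes (3.52%). The promoters of Rsad2 (viperin, chr12:26456403-26456702) and Oas1a (an oligoadenylate synthetase, chr5:120907476-120907775) are given because they are the listed genes with the smallest p whose promoters hold this core. The source, build and minus strand are as above, with the core in capitals; in Oas1a 2 cores overlap.
Rsad2: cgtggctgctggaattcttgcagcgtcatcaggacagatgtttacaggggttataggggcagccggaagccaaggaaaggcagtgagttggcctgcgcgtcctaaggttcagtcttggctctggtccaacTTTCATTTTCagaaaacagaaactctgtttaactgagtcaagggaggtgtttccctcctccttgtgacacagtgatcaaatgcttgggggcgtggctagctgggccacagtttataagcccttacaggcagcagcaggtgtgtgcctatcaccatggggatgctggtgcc
Oas1a: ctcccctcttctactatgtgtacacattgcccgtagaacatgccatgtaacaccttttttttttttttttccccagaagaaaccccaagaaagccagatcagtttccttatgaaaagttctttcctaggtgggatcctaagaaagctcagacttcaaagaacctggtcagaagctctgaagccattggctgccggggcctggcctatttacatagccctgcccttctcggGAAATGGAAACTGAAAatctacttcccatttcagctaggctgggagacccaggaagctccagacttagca
The match is a description of the letters, not evidence of binding. The members were listed as interferon-responsive, so their higher share goes with the choice of the list and does not bear on TAC.

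Usp18, which removes the ubiquitin-like ISG15 and dampens the receptor (chr6:121245906-121272685), had 1.96, 1.65 and 2.24 FPKM in TAC+control hearts, against 7.32, 10.8 and 3.11 FPKM in Sham+control hearts. Ifi27, an interferon-induced mitochondrial protein, had 26.5, 16.5 and 15.1 FPKM in TAC+control hearts, against 47.5, 51.7 and 35.4 FPKM in Sham+control hearts. Lgals3bp, a secreted galectin-binding glycoprotein, had 20.8, 18.8 and 20.2 FPKM in TAC+control hearts, against 34.3, 37.2 and 35.5 FPKM in Sham+control hearts. The highest TAC+control mouse was below the lowest Sham+control mouse each time, by the smallest margin in Usp18. Their log2 fold changes were -1.33 ± 0.32, -1.20 ± 0.29 and -0.81 ± 0.21 (limma adjusted p = 0.408 for each), and Lgals3bp passed in the fit of these groups alone (limma adjusted p = 0.0424; 0.295 to 0.792 in the other 15 alternatives). Irf7, which amplifies the response, had 6.21, 6.95 and 7.06 FPKM in TAC+control hearts, against 10.6, 7.11 and 9.46 FPKM in Sham+control hearts (-0.36 ± 0.24). Rsad2 and Oas1a stood at -0.51 ± 0.15 and -0.39 ± 0.17. Macrophage markers, summed over 10 genes, were 329 to 356 FPKM in TAC+control and 312 to 406 FPKM in Sham+control, overlapping. Their part in the interferon result was not tested.

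**Figure D3:**
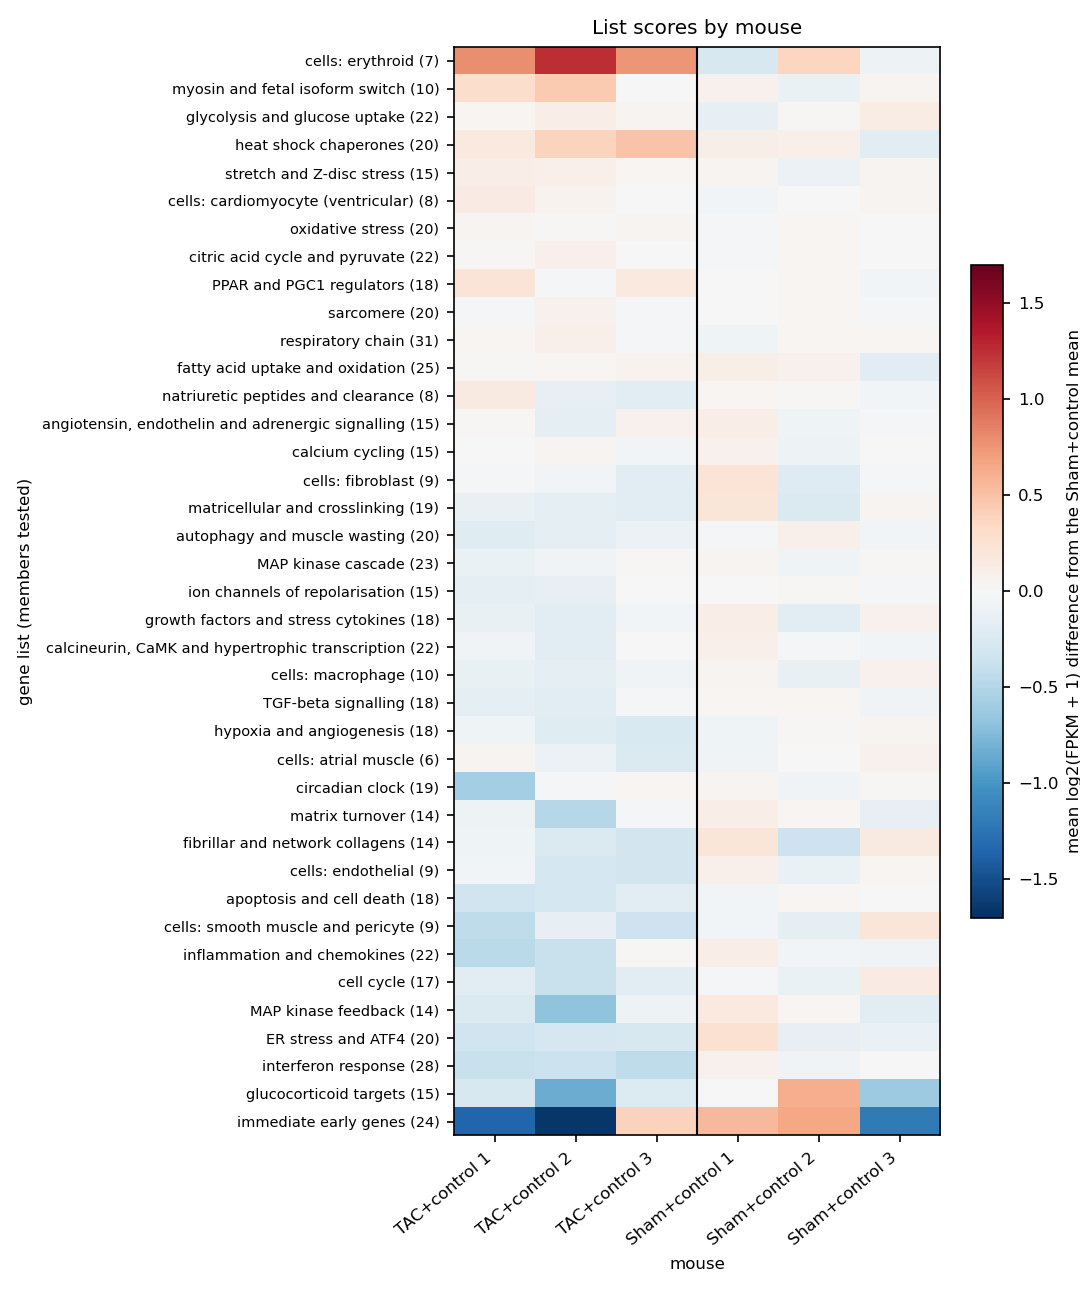
Mean log2(FPKM + 1) difference from the Sham+control mean over the members of each gene list with at least 5 tested members, by mouse, the 3 TAC+control mice left of the 3 Sham+control mice, lists ordered by median log2 fold change. Erythroid genes are high in all 3 TAC+control mice and interferon genes low in all 3, while immediate early genes are high in TAC+control replicate 3 and low in Sham+control replicate 3.

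Immediate early genes, the AP-1, EGR and NR4A factors transcribed within minutes of a stimulus, varied strongly between mice. Fos had 5.16, 22.3 and 105 FPKM in TAC+control hearts, against 96.99, 169 and 18.8 FPKM in Sham+control hearts. Nr4a1 had 25.7, 22.7 and 338 FPKM in TAC+control hearts, against 351, 327 and 31.6 FPKM in Sham+control hearts. Atf3 had 33.6, 2.93 and 142 FPKM in TAC+control hearts, against 132, 91.1 and 7.13 FPKM in Sham+control hearts. In each gene TAC+control replicate 3 stood with the high Sham+control mice, and Sham+control replicate 3 with the low TAC+control mice. Of the 24 tested members 23 had a negative log2 fold change (65.1% of all genes), with a median of -0.86. Only 1, Klf6, was lower without overlap, where 9.74% of all genes were, and 0 passed. TAC+control replicate 3 was the highest of its group in 22 of 24 members, where it was the highest in 33.1% of all genes. Sham+control replicate 3 was the lowest of its group in 23 of 24, where it was the lowest in 32.9% of all genes. Leaving out 1 library at a time moved the list median between -1.57 and -0.53. Klf6, a Krüppel-like factor, had 14.1, 11.4 and 13.6 FPKM in TAC+control hearts, against 25.2, 33.5 and 15.4 FPKM in Sham+control hearts (log2 fold change -0.82 ± 0.22; limma adjusted p = 0.408). Zfp36, the mRNA decay factor tristetraprolin, had 42.02, 45.2 and 110.1 FPKM in TAC+control hearts, against 179.5, 260.0 and 96.7 FPKM in Sham+control hearts.

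**Figure D4:**
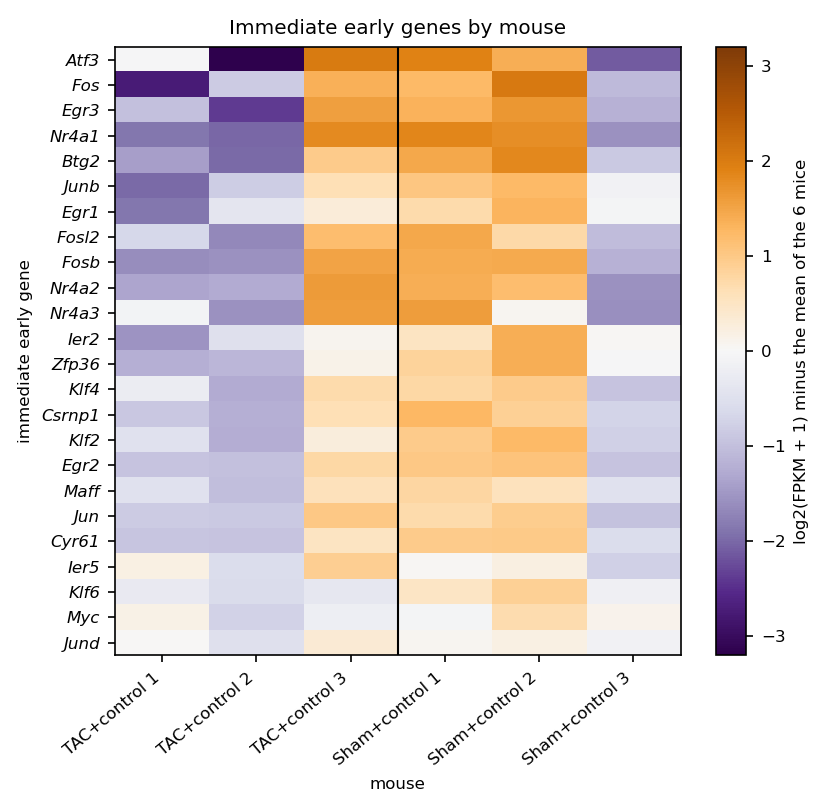
Log2(FPKM + 1) of 24 immediate early genes minus the mean of the 6 mice, TAC+control left of Sham+control, genes ordered by their largest deviation. TAC+control replicate 3 resembles Sham+control replicates 1 and 2, and Sham+control replicate 3 resembles TAC+control replicates 1 and 2.

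The MAP kinase genes that the series asks about stood close to the median of all genes, and no gene of their feedback list passed. Of 23 kinases and upstream activators 14 were lower and 9 higher, with a median log2 fold change of -0.068. The kinase Mapk3 stood at -0.13 ± 0.13, p38-alpha Mapk14 at -0.11 ± 0.13 and JNK1 Mapk8 at 0.07 ± 0.13. Transcript level says nothing about phosphorylation of these kinases. Of 14 feedback genes 11 were lower (65.1% of all genes), with a median of -0.27 that was -0.11 without TAC+control replicate 2, and 0 passed. Without overlap, 2 of them were lower (9.74% of all genes) and 1 was higher (3.0% of all genes). Dusp6, the phosphatase that switches off ERK and is itself an ERK target, had 11.9, 7.14 and 10.9 FPKM in TAC+control hearts, against 17.9, 16.9 and 13.9 FPKM in Sham+control hearts. Etv5, an ETS factor downstream of ERK, had 4.23, 3.16 and 4.26 FPKM in TAC+control hearts, against 6.57, 6.78 and 4.48 FPKM in Sham+control hearts. Spry4, a Sprouty inhibitor of receptor kinases, had 7.22, 1.96 and 9.55 FPKM in TAC+control hearts, against 20.1, 12.4 and 8.68 FPKM in Sham+control hearts. Dusp6 and Etv5 did not overlap (log2 fold changes -0.67 ± 0.18 and -0.50 ± 0.17; limma adjusted p = 0.408 and 0.534) and Spry4 did (-1.14 ± 0.38; limma adjusted p = 0.542). Dusp1, a phosphatase for p38 and JNK, had 81.5, 55.99 and 200.3 FPKM in TAC+control hearts, against 287, 312 and 107 FPKM in Sham+control hearts, and its high TAC+control mouse and low Sham+control mouse were again both replicate 3.

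No gene of the collagen and matrix lists, which hold markers of fibrosis of the loaded heart, passed. All 14 collagens had a negative log2 fold change (13 under quantile normalization, 65.1% of all genes), with a median of -0.17. None was lower without overlap, where 9.74% of all genes were. That median was -0.085 without Sham+control replicate 1, -0.37 without Sham+control replicate 2, and it was -0.28 when TAC+control replicate 1 was left out. Of 19 matricellular and crosslinking genes 12 were lower and 7 higher, with a median of -0.051. Of 14 matrix turnover genes 13 were lower and 1 higher, with a median of -0.16. Col3a1, of fibrillar collagen, had 25.8, 19.1 and 18.8 FPKM in TAC+control hearts, against 40.8, 20.5 and 36.05 FPKM in Sham+control hearts. Col1a2 had 24.2, 29.03 and 26.02 FPKM in TAC+control hearts, against 33.6, 25.5 and 29.3 FPKM in Sham+control hearts. Postn, the matricellular protein periostin of activated fibroblasts, had 3.66, 5.09 and 3.19 FPKM in TAC+control hearts, against 7.87, 3.51 and 5.63 FPKM in Sham+control hearts. Sham+control replicate 2 was the lowest of its group in 14 of 14 collagens, and in the 3 genes shown it lay among the TAC+control mice. The log2 fold changes of Col3a1, Col1a2 and Postn were -0.55 ± 0.38, -0.15 ± 0.16 and -0.39 ± 0.25 (limma adjusted p = 0.708, 0.81 and 0.702), and the 95% confidence interval of Col1a2, -0.49 to 0.20, reached only small positive values. In the TGF-beta pathway, the receptor Tgfbr1 and the effector Smad3 were lower without overlap (-0.32 ± 0.14 and -0.34 ± 0.12), the inhibitory Smad6 was higher without overlap (0.23), and the target Ctgf had 48.1, 14.8 and 33.9 FPKM in TAC+control hearts, against 38.2, 97.1 and 43.4 FPKM in Sham+control hearts. Of 18 pathway members 13 were lower, with a median of -0.11. Thbs1, thrombospondin, an activator of TGF-beta, had 4.49, 0.96 and 15.8 FPKM in TAC+control hearts, against 36.8, 17.4 and 3.49 FPKM in Sham+control hearts, ordered by mouse as the immediate early genes were. The summed fibroblast markers overlapped, at 1063 to 1274 FPKM in TAC+control and 999 to 1195 FPKM in Sham+control.

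Genes of fuel metabolism differed little in size. Of 25 fatty acid genes 16 were higher and 0 passed, with a median log2 fold change of 0.020 that was 0.084 after median-ratio scaling (23 of 25 higher), -0.014 under quantile normalization, -0.024 in TPM and -0.018 without Sham+control replicate 3, and a range of -0.10 to 0.18. Cpt1b, the rate-limiting importer of fatty acids into muscle mitochondria, had 377, 398 and 379 FPKM in TAC+control hearts, against 347, 360.3 and 320.4 FPKM in Sham+control hearts. Pdhb, of pyruvate dehydrogenase, had 707, 732 and 674 FPKM in TAC+control hearts, against 562, 665 and 649 FPKM in Sham+control hearts. Cox7a1, the muscle form of a cytochrome oxidase subunit, had 3053, 3284 and 3183 FPKM in TAC+control hearts, against 2707, 2879 and 2754 FPKM in Sham+control hearts. All 3 were higher without overlap, by log2 fold changes of 0.17, 0.17 and 0.19 (limma adjusted p = 0.593, 0.593 and 0.556). Citric acid cycle and respiratory chain lists had medians of 0.038 and 0.026, which turned negative under quantile normalization (-0.023 and -0.037). In glycolysis 17 of 22 genes were higher, with a median of 0.091. Pgam1, phosphoglycerate mutase, had 111, 81.9 and 82.96 FPKM in TAC+control hearts, against 71.5, 52.7 and 58.9 FPKM in Sham+control hearts. Pfkfb2, the cardiac enzyme that makes the activator of phosphofructokinase, had 17.8, 13.00 and 17.9 FPKM in TAC+control hearts, against 22.1, 27.2 and 18.1 FPKM in Sham+control hearts, with Sham+control replicate 3 within 1 FPKM of 2 TAC+control mice. Pgam1 was at 0.58 ± 0.17 and Pfkfb2 at -0.44 ± 0.15 (limma adjusted p = 0.461 and 0.542). Ppara, the receptor that drives fatty acid genes, was higher without overlap at 0.26.

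No gene of the secretory stress, hypoxia or inflammation lists passed. In the ER stress and ATF4 list 17 of 20 members were lower (65.1% of all genes), 3 without overlap (9.74% of all genes), with a median of -0.29 that was -0.099 without Sham+control replicate 1. Chac1, the glutathione-degrading ATF4 target, had 0.65, 0.78 and 0.99 FPKM in TAC+control hearts, against 1.56, 6.21 and 4.03 FPKM in Sham+control hearts. Dnajb9, an ER cochaperone, had 23.1, 26.5 and 30.8 FPKM in TAC+control hearts, against 47.1, 35.9 and 30.03 FPKM in Sham+control hearts. Every TAC+control mouse had under 1 FPKM of Chac1, whereas Dnajb9 overlapped (-1.33 ± 0.39 and -0.46 ± 0.15; limma adjusted p = 0.461 and 0.52). In the hypoxia and angiogenesis list 14 of 18 members were lower (65.1% of all genes), with a median of -0.13. Without overlap, 1 member was lower (9.74% of all genes) and 1 higher (3.0% of all genes). Hif1a, the oxygen-regulated transcription factor, had 10.9, 10.8 and 12.8 FPKM in TAC+control hearts, against 19.5, 16.1 and 15.2 FPKM in Sham+control hearts, a log2 fold change of -0.52 ± 0.13 without overlap. Cited2, which limits HIF-1, had 15.7, 18.6 and 15.99 FPKM in TAC+control hearts, against 17.3, 36.8 and 31.7 FPKM in Sham+control hearts, and it passed only without Sham+control replicate 1 (-0.99, limma adjusted p = 0.0290; 0.344 to 0.797 in the other 15 alternatives). Nfkbia, the NF-kappaB inhibitor and target, had 27.04, 21.7 and 26.6 FPKM in TAC+control hearts, against 47.3, 41.3 and 31.6 FPKM in Sham+control hearts (-0.64 ± 0.15; limma adjusted p = 0.408). Ccl5, a chemokine, had 0.9, 0.45 and 0.54 FPKM in TAC+control hearts, against 1.19, 1.22 and 1.9 FPKM in Sham+control hearts. In the inflammation list 17 of 22 members were lower, with a median of -0.23 that moved to -0.14 when Sham+control replicate 1 was left out, or to -0.37 when TAC+control replicate 3 was. Oxidative stress genes had a median of 0.048 and Hmox1 at -0.04. Of 17 tested cell cycle genes 15 were lower and 0 passed, with a median of -0.25 that was -0.11 without Sham+control replicate 3. Cdkn1b, the inhibitor p27, had 13.3, 14.1 and 14.04 FPKM in TAC+control hearts, against 16.9, 16.7 and 16.9 FPKM in Sham+control hearts, without overlap.

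No vessel cell marker passed. All 9 endothelial markers had a negative log2 fold change (8 after median-ratio scaling), 3 without overlap (9.74% of all genes), with a median of -0.20, and their sum overlapped at 1053 to 1288 FPKM in TAC+control and 1243 to 1396 FPKM in Sham+control. Esam, an endothelial junction protein, had 41.4, 36.8 and 45.6 FPKM in TAC+control hearts, against 54.6, 55.5 and 52.97 FPKM in Sham+control hearts. Cdh5, VE-cadherin, had 76.9, 61.01 and 72.7 FPKM in TAC+control hearts, against 96.05, 80.7 and 90.5 FPKM in Sham+control hearts. Myh11, smooth muscle myosin, had 3.88, 5.52 and 3.86 FPKM in TAC+control hearts, against 5.9, 6.16 and 8.37 FPKM in Sham+control hearts. None of these 3 overlapped, and the log2 fold changes were -0.39 ± 0.10, -0.34 ± 0.14 and -0.53 ± 0.17 (limma adjusted p = 0.408, 0.561 and 0.492). All 9 smooth muscle and pericyte markers had a negative value too, with a median of -0.23, at overlapping sums of 221 to 258 FPKM in TAC+control and 234 to 329 FPKM in Sham+control.

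The mice given pimobendan provide a TAC comparison that shares no library with the one above. TAC+pimobendan minus Sham+pimobendan had 558 of 11415 genes (4.89%) with a limma adjusted p under 0.05. These groups also differed in the GC trend defined above. Spearman's rho was -0.195, -0.510 and -0.518 in TAC+pimobendan and 0.141, 0.359 and 0.524 in Sham+pimobendan, without overlap. The part of this trend in the TAC effect with drug was not tested. The difference of both TAC effects had 0 genes (0.0%) under 0.05 by limma, with 2312 at an unadjusted p under 0.05 and a smallest adjusted p of 0.0853. Both counts depended on the fit: with array weights they were 1350 for the TAC effect with drug and 500 for the difference, and with the replicate number as a block of all groups both were 0. Same-numbered libraries of TAC+control and TAC+pimobendan deviated together, at r of 0.154, 0.208 and 0.101 across genes. Over all pairs of libraries from different groups, r ran from -0.440 (Sham+control 3 with TAC+pimobendan 3) to 0.434 (Sham+control 2 with Sham+pimobendan 1). The pairing was chosen from these data and lies within that range. With the same-numbered TAC libraries taken as pairs, 130 genes passed the test of the difference. Across genes, which are not independent, Pearson's r between both TAC effects was 0.024. Of the 171 genes higher at an unadjusted p under 0.05 without drug, 82 (48.0%) were positive with drug, against 49.0% of all genes. Of the 780 lower genes, 386 (49.5%) were negative with drug, against 51.0% of all genes.

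Several genes and lists had the same sign without and with drug, and others did not. Fbxo32 was at -1.37 ± 0.27 without drug and 0.24 ± 0.27 with it (limma adjusted p of the difference = 0.0853). Rtn4r stood at 1.53 ± 0.41 and -0.53 ± 0.41 (adjusted p of the difference in limma = 0.0958). Depp1 was negative in both, at -1.90 ± 0.43 and -1.57 ± 0.43, and G0s2 positive in both, at 1.38 ± 0.27 and 0.59 ± 0.27. The 7 erythroid genes were positive in both, with medians of 1.03 and 0.76, and endothelial markers had medians of -0.20 without drug, where 9 of 9 were negative, and -0.28 with it, where 5 of 9 were. Interferon genes had a median of -0.34 without drug and 0.22 with it, where 21 of 28 were positive, and collagens had -0.17 and -0.58. No member of any of these lists passed the test of the difference, except that 2 of 28 interferon genes did with the TAC pairs and 4 of 28 with array weights. With array weights Fbxo32 and Rtn4r passed it too (limma adjusted p = 0.0377 and 0.0467).

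**Figure D5:**
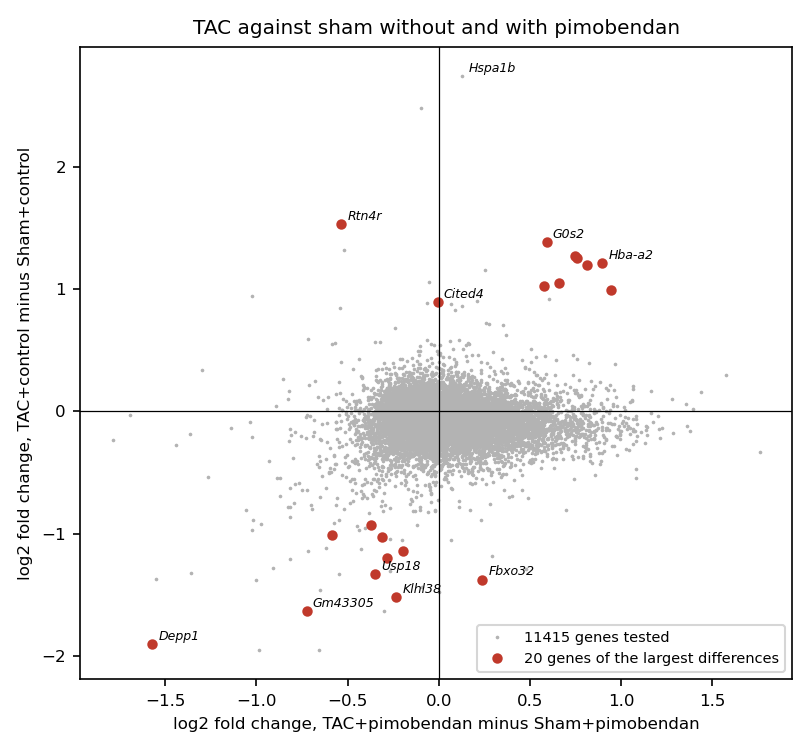
Log2 fold change of TAC+control minus Sham+control (vertical) against that of TAC+pimobendan minus Sham+pimobendan (horizontal) for 11415 genes, with the 20 genes of largest difference in red. The cloud shows no diagonal (Pearson's r 0.024 across genes); G0s2, Hba-a2 and Depp1 keep their sign while Rtn4r and Fbxo32 do not.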

How the data were processed

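Left ventricular RNA of 12 mice was analysed, 6 of them in the main comparison. The authors deposited FPKM and TPM per gene and sample without counts, so depth is unknown and no counting interval is given. Tools listed without a role in the submitters' processing notes are RSEM 1.2.12, HISAT2 2.0.4, DESeq2 1.4.5 and Bowtie2 2.2.5, with the build GRCm38. Genes with at least 1 FPKM in 3 or more of 12 samples were fitted as log2(FPKM + 1) with limma 3.58.1 (R 4.3.3; trended variance, 4 group means, all 12 libraries, 8 residual degrees of freedom), the plan for data without counts. The fold changes understate those of low genes. Benjamini-Hochberg adjustment ran over 11415 genes, and a gene passed at an adjusted p under 0.05. On simulated data for this comparison over 11415 genes, the fit called 97 of 100 genes changed by 1 and 96 of 100 changed by 2 on the log2 scale, with 9 false calls. The changed genes were drawn from those with a mean log2(FPKM + 1) above 2, and the noise was normal and independent between genes. Variation that genes of 1 mouse share was not simulated, so this checks the code and does not measure power in these data.

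Lists are described by counts and medians, with no set test. Genes named were a panel of pressure-overload markers, the 10 largest positive and 10 largest negative differences (unadjusted p under 0.05, no overlap, at least 5 FPKM in the higher group), the 10 smallest p, up to 3 members of each list with the smallest p in these data, and genes that passed in an alternative. Other members were chosen after their values were seen. Members picked by p are extremes of their lists and not typical of them. Members and lists were chosen with earlier results of these data known. Replicate numbers did not pair TAC+control with Sham+control samples; same-numbered TAC+control and TAC+pimobendan samples deviated together (r = 0.154, 0.208 and 0.101 across genes), a pattern of the data and not of the labels, and a fit with those pairs was added. Coordinates, promoters and coding frames came from RefSeq and GENCODE GRCm38 annotation, joined on NCBI Gene IDs for 16941 of 17052 genes. Alternatives were other scalings, filters, pseudocount, sample sets, weights and variance models, and leaving out each replicate.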

Additional observations from a re-analysis of the deposited data

How the results depend on the processing

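No gene passed in 13 of 16 alternatives; the exceptions were the fit of only these groups (2 genes), without TAC+control replicate 1 (4 genes) and without Sham+control replicate 1 (1 gene). Genes at an unadjusted p under 0.05 were 263 higher with no filter. The other counts that moved followed scaling: 458 higher and 444 lower with median-ratio scaling, 380 and 319 with quantile normalization, and 99 higher in TPM; genes without overlap were 773 higher and 698 lower, 649 and 512, and 197 higher in the same settings. Leaving out 1 replicate gave 0 to 4 genes passing, 108 to 261 higher and 512 to 926 lower. In alternatives chosen after seeing the data, the TAC effect with drug had 298 genes passing under quantile normalization, 0 with no filter or with the replicate number as a block, 1350 with array weights and 312 to 739 with 1 replicate left out. The difference of both TAC effects had 500 with array weights, 130 with same-numbered TAC libraries as pairs (replicate block of the TAC groups alone), and 0 to 1 (Hspa1b) with 1 replicate left out.

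List medians close to 0 moved with scaling. With median-ratio scaling the medians were 0.120 for ventricular muscle, 0.091 for sarcomere, 0.102 for citric acid cycle, 0.090 for respiratory chain and 0.112 for oxidative stress genes. With quantile normalization they were -0.016, -0.020, -0.023 and -0.037 for the first 4, -0.013 for TGF-beta, -0.24 for interferon and -0.15 for apoptosis genes. In TPM they were -0.017 for sarcomere, -0.0060 for citric acid cycle, 0.0048 for oxidative stress, -0.41 for interferon and -0.29 for apoptosis genes. With a pseudocount of 0.1 interferon genes stood at -0.41 and apoptosis genes at -0.31, and with a mean filter atrial genes at -0.38. Why they moved was not tested. Leaving out 1 replicate gave medians of 0.022 to 0.083 for sarcomere, -0.061 to 0.045 for calcium cycling, -0.16 to -0.030 for ion channels of repolarisation, -0.25 to 0.011 for matricellular and crosslinking, -0.22 to -0.048 for growth factors and stress cytokines, -0.083 to 0.0099 for MAP kinase cascade, -0.0030 to 0.062 for citric acid cycle and pyruvate, -0.42 to -0.099 for ER stress and ATF4, 0.0036 to 0.064 for oxidative stress and -0.27 to -0.11 for cell cycle genes.

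Named genes that changed sign under another scaling or with array weights took values near 0 there. They were Myh6 (-0.032 in both quantile normalization and TPM), Atp2a2 (-0.072 and -0.0033) and Pln (0.055 with median-ratio scaling). Gdf15 (0.062 with quantile normalization, 0.027 with array weights) was another, as were Mbp (0.020), Ckm (-0.0082) and Actn2 (-0.0029) with quantile normalization. Leaving out 1 replicate turned the sign within ranges of -0.13 to 0.62 for Nppb, -0.45 to 0.89 for Myh7, -0.035 to 0.063 for Myh6, -0.32 to 0.14 for Ankrd1, -0.079 to 0.056 for Pln, -0.55 to 0.024 for Timp1, -0.26 to 0.0064 for Tgfb2, -0.32 to 0.42 for Gdf15, -0.26 to 0.48 for Rcan1, -0.33 to 0.16 for Mbp and -0.024 to 0.13 for Ckm.

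The replicate number as a block left 0 genes passing, with 146 higher and 626 lower at an unadjusted p under 0.05. Same-numbered samples of these groups did not deviate together (r = 0.013, -0.095 and -0.351 across genes), so the numbers are read as names only in that comparison. Depth is unknown, and with 3 mice a group a log2 difference under about 0.272 is within the median half-width of the intervals.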

Other observations

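Among clock genes, 1 TAC+control mouse stood apart in several. Dbp, an output gene of the circadian clock, had 3.00, 111 and 51.9 FPKM in TAC+control hearts, against 30.8, 30.6 and 124 FPKM in Sham+control hearts. Arntl, the clock activator BMAL1, had 11.3, 0.71 and 1.09 FPKM in TAC+control hearts, against 3.02, 1.93 and 0.84 FPKM in Sham+control hearts. TAC+control replicate 1 stood apart in both, with the lowest Dbp and the highest Arntl of the 6 mice. Nr1d1, the repressor REV-ERB-alpha, had 8.14, 52.4 and 20.8 FPKM in TAC+control hearts, against 26.1, 18.7 and 66.5 FPKM in Sham+control hearts, in the same order of mice as Dbp within TAC+control. Of 19 clock genes 14 had a negative log2 fold change and 0 passed, with a median of -0.14 that moved to 0.014, -0.24 or -0.31 when replicate 1, 2 or 3 of TAC+control was left out. TAC+control replicate 1 was the lowest of its group in 12 of them, where it was the lowest in 37.7% of all genes. Cry1, a clock repressor, was the 1 clock gene without overlap, where 3.0% of all genes were higher without overlap. It had 13.2, 5.97 and 6.07 FPKM in TAC+control hearts, against 4.72, 4.26 and 4.39 FPKM in Sham+control hearts (log2 fold change 0.70 ± 0.22, limma adjusted p = 0.476). Hours of tissue collection are not given in the sources used here.

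Glucocorticoid-responsive genes were ordered by mouse within Sham+control. Per1, a target shared with the clock list, had 6.17, 7.87 and 23.2 FPKM in TAC+control hearts, against 29.9, 27.99 and 14.03 FPKM in Sham+control hearts. Sgk1, a kinase induced by glucocorticoids, had 81.8, 29.9 and 71.4 FPKM in TAC+control hearts, against 132, 178 and 51.6 FPKM in Sham+control hearts. Sham+control replicate 2 was the highest of its group in 11 of 15 members and replicate 3 the lowest in 12. S100a8, a neutrophil calcium-binding protein, had 1.00, 0.33 and 5.41 FPKM in TAC+control hearts, against 0.3, 0.6 and 0.31 FPKM in Sham+control hearts, high in TAC+control replicate 3.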
